A study of Homo sapiens with 20 samples.

Results

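Interferon-stimulated genes are the transcripts that a cell switches on after it senses an interferon. A list of 47 such genes was followed across 20 Affymetrix exon arrays of 2 human cell lines. A gene counted as measured when the platform's probe-gene table gave it a probe set carrying no other gene symbol, and 42 of the 47 were measured, out of 14232 genes measured in the series. STAT2 has no listed probe set, and GBP1, GBP2, SLFN11 and USP18 are listed only on probe sets that carry several symbols, so these 5 genes have no value. DDX58 was found under its current symbol, RIGI.

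The lines are Raji, derived from a Burkitt lymphoma (a tumour of B cells), and LP-1, derived from a multiple myeloma (a tumour of plasma cells). Cells of each line received 500 nM of a BET inhibitor or 500 nM of its inactive enantiomer, the mirror-image molecule, for 4 h or 8 h, or were left untreated and taken at 0 h. BET inhibitors displace bromodomain proteins from acetylated histones, and the compound is not named in the labels. There are 10 groups of 2 biological replicates each, per the labels. No untreated or vehicle group was sampled at 4 h or 8 h, so the inactive enantiomer at the same time is the matched control. Both lines are established cultures, and no interferon was given to any group according to the labels.

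Type I and type III interferons act through the kinases JAK1 and TYK2 to assemble the complex ISGF3, which binds a DNA element called the ISRE. Interferon gamma acts through JAK1 and JAK2 and on genes with an element called GAS. The genes switched on include RNA sensors, enzymes that degrade or sequester viral RNA, the ubiquitin-like protein ISG15 and its ligases, and chemokines such as CXCL10 that draw T cells. Many of these genes are also transcribed at a low or moderate level in lymphoid cells that have not met a virus.

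Promoter sequences of the genes on which the results turn are shown to place the ISRE and GAS letters in them. They are the 250 bases before and 50 bases after the transcription start in RefSeq GRCh38.p14, and 34 of the 42 measured genes have such an entry. The ISRE letters searched were GAAANNGAAA and the GAS letters TTCNNNGAA, on both strands, where N is any base. The ISRE letters occur in 3.57% of all 35116 promoters of that length, and the GAS letters in 7.66%. Of the 34 genes, 22 have the ISRE letters and 8 the GAS letters in at least 1 promoter. Counted per gene in the same way, 4.38% of all 27305 genes have the ISRE letters and 9.38% the GAS letters. An ISRE match overlaps a GAS match in BST2 and in MX1, and ISRE matches overlap each other in BST2, HERC5, IFIH1 and ISG15. The promoters of CXCL10 (chr4:76023448-76023747, minus strand) and DTX3L (chr3:122564088-122564387, plus strand), both lowered in results below, are given whole with the ISRE letters in capitals.
CXCL10: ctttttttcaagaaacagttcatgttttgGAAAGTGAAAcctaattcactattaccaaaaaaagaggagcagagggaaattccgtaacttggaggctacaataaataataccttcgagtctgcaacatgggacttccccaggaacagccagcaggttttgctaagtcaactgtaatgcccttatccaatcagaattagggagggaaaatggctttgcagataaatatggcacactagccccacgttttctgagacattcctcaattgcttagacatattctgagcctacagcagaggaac
DTX3L: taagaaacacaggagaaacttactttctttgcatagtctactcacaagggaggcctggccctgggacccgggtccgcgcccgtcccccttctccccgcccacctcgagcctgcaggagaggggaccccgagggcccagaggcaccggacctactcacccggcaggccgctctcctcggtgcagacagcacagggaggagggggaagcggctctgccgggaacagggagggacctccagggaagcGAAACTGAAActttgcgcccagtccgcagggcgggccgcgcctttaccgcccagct

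The same 10 letters of the DTX3L promoter, read on the other strand, lie in a promoter of PARP9 (chr3:122564251-122564550, minus strand), which shares 137 bases with the DTX3L window. That match is shown with 10 bases on either side, as is 1 match in each of 4 genes that passed no test of the inhibitor, ISG15, IFIT1, EIF2AK2 and OAS3, and the match to the GAS letters in IRF9, which did. Capitals mark the matched letters, and TTTC at the start of a match means that it lies on the opposite strand.
PARP9: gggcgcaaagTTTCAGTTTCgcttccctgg
ISG15: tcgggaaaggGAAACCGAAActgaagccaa
IFIT1: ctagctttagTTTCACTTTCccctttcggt
EIF2AK2: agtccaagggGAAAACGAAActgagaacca
OAS3: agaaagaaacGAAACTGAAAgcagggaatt
IRF9: accacgtgatTTCTGGGAAaaggccctcc
Of the 6 genes called in at least 1 comparison of the BET inhibitor with the inactive enantiomer, 5 have a promoter entry. The ISRE letters are in 2 of these 5 (CXCL10 and DTX3L) and in 20 of the 29 entries of genes that were not called. The GAS letters are in 1 of the 5 (IRF9) and in 7 of the 29. SLFN5 has no entry.

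All values are log2 expression values, so a difference of 1 is a doubling. Array medians were between 5.13 and 5.39, and replicates correlated at 0.973 to 0.989 over all 22011 probe sets. Over the 20 arrays, the mean of 13 of the 42 genes was below the 25th percentile of all probe sets, that of 9 lay between it and the median, and that of 20 was above the median. Probe sets differ in their own brightness, so these ranks do not order transcripts by abundance. The line labels were set against marker genes: 3 of 8 plasma cell markers were above the array's 75th percentile in untreated Raji, against 7 of 8 in untreated LP-1. All 6 measured B cell markers were above it in untreated Raji, against 0 in untreated LP-1. No T and NK cell marker (13 measured) or myeloid marker (8 measured) was above it in any group. Of 4 measured plasmacytoid dendritic cell markers, 1 was above it in all 10 groups. Of 12 epithelial and fibroblast markers, 1 (KRT8, a keratin) was above it in all groups but the inhibitor in LP-1 at 8 h, where its mean was 6.72, against 8.92 to 9.29 in the other groups. Less RNA per cell and fewer cells cannot be told apart in such bulk samples.

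The BET inhibitor changed a small set of interferon-stimulated genes, and not all in 1 direction. CXCL10 and DTX3L were lower than with the inactive enantiomer in LP-1 at 8 h and in Raji at 4 h and 8 h, and SLFN5 was higher in the same 3 comparisons. IRF9 was higher in LP-1 at 8 h and in Raji at 4 h, and MLKL and SAMD9L were lower in LP-1 at 8 h. A gene was called at an adjusted p under 0.05 in limma's moderated test of all 20 arrays, adjusted over the whole table of 22011 probe sets by the Benjamini-Hochberg method. Of the 42 genes, 36 were called in none of the 4 comparisons. The matching share of all probe sets was not counted, and their share in each comparison is given next.

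In LP-1 at 4 h, 0 of 42 were called, against 2.28% of all probe sets, and 8 of the 42 had an unadjusted p under 0.05, beside 3153 of 22011 probe sets. The 95% intervals of 11 of the 42 reached beyond a change of 1. At 8 h in LP-1, 6 were called (2 higher, 4 lower), which is 14.3% of the 42, against 5.73% of all probe sets (3.76% higher, 1.97% lower). In Raji at 4 h, 4 were called (2 higher, 2 lower), which is 9.52%, against 1.78% (1.44% higher, 0.341% lower). In Raji at 8 h, 3 were called (1 higher, 2 lower), which is 7.14%, against 1.88% (0.827% higher, 1.05% lower). With calls this few, 1 gene more or less moves these shares by over 2 percentage points. Under quantile normalization of the arrays the same genes were called, while the higher calls among all probe sets called made up 53.9% in place of 65.6% in LP-1 at 8 h and 61.2% in place of 80.8% in Raji at 4 h. The median change of the 42 genes was -0.09 in LP-1 at 4 h, 0.01 in LP-1 at 8 h, -0.14 in Raji at 4 h and -0.07 in Raji at 8 h. The medians over all probe sets were -0.04, 0.06, 0.01 and -0.0007 in the same order.

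**Figure D1:**
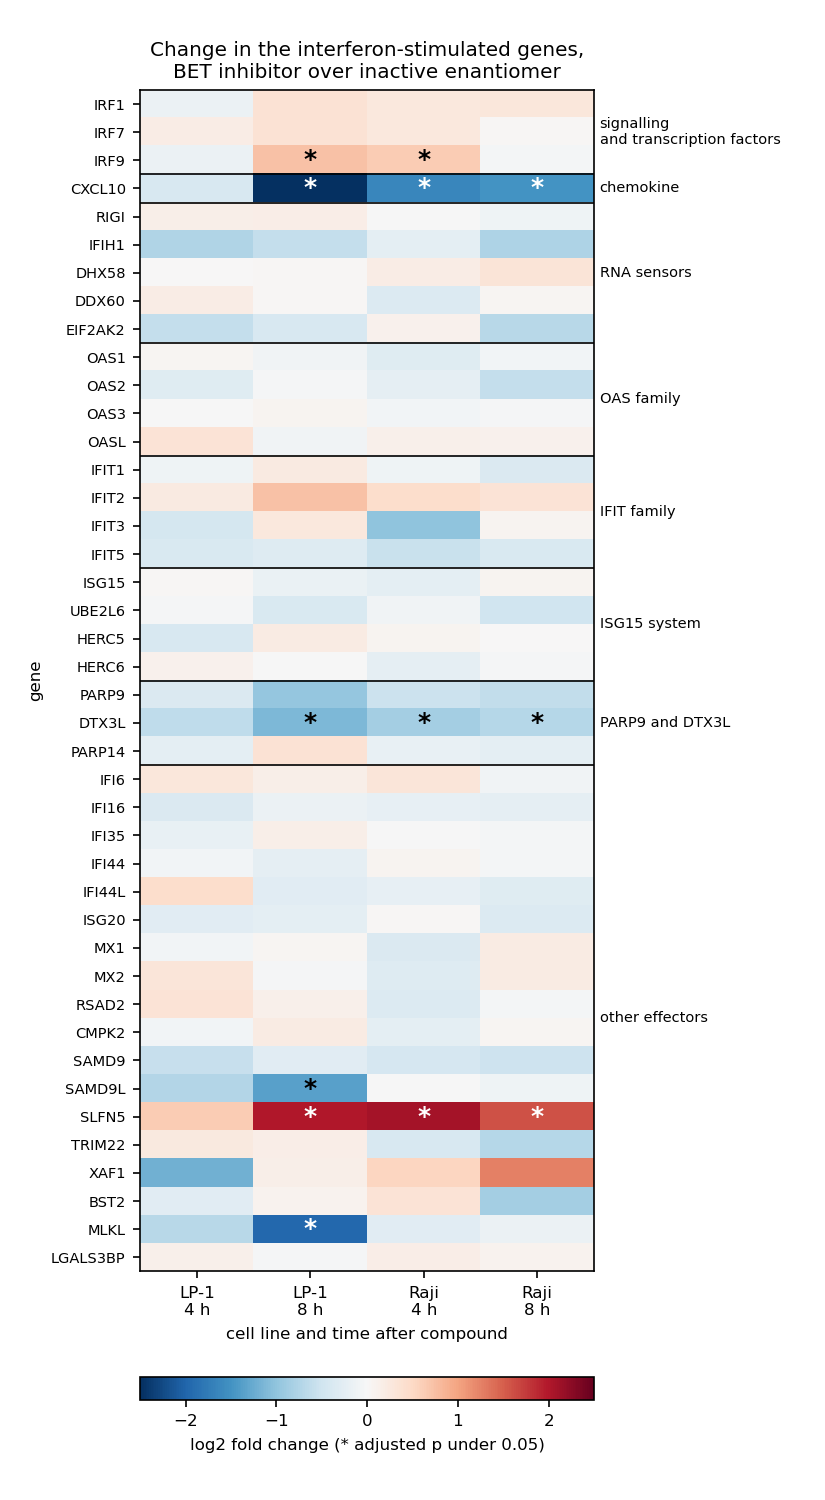
Change in each of the 42 measured genes in rows, grouped by role, for BET inhibitor over inactive enantiomer in LP-1 and Raji at 4 h and 8 h in columns. Colour is the log2 fold change (blue lower, red higher with the inhibitor), and an asterisk marks an adjusted p under 0.05: CXCL10, DTX3L and SLFN5 carry 3 asterisks each, IRF9 2, and MLKL and SAMD9L 1.

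**Figure D2:**
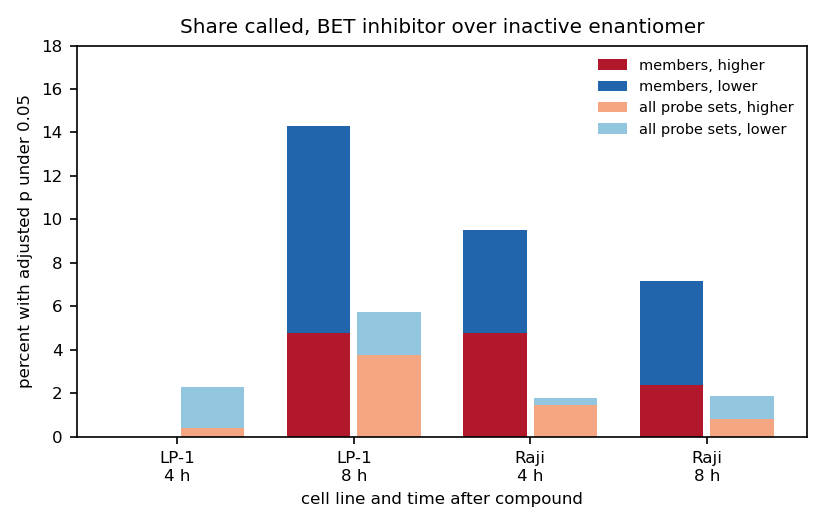
Percent of the 42 genes (left bar of each pair) and of all 22011 probe sets (right bar) with an adjusted p under 0.05 for BET inhibitor over inactive enantiomer, by cell line and time. Each bar is split into higher and lower calls. The bars for the genes stand at 0, 14.3, 9.52 and 7.14%, and those for all probe sets at 2.28, 5.73, 1.78 and 1.88%.

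CXCL10 encodes a chemokine that binds CXCR3 on T cells and NK cells. Its values in LP-1 at 8 h were 5.46 and 6.20 with the BET inhibitor, against 8.33 and 8.31 with the inactive enantiomer and 8.23 and 8.93 in untreated cells. Both inhibitor arrays lay more than 2 below both arrays of the inactive enantiomer, and the change was -2.49 ± 0.29 (SE, limma adjusted p = 0.000443), or 5.62-fold lower. At 4 h in LP-1 the inhibitor gave 7.30 and 7.59 against 7.87 and 7.84 with the inactive enantiomer, a difference of -0.40 (95% interval -1.03 to 0.23) that was not called. In Raji, where CXCL10 was lower than in LP-1 in every group, it read 3.11 and 3.51 with the inhibitor at 4 h, against 4.79 and 5.10 with the inactive enantiomer. At 8 h it read 3.34 and 3.601 with the inhibitor in Raji, against 4.78 and 5.16 with the inactive enantiomer. Untreated Raji gave 4.70 and 4.10, so the 4 inhibitor arrays were below all 6 other Raji arrays. The changes in Raji were -1.63 ± 0.29 at 4 h (limma adjusted p = 0.0149) and -1.50 ± 0.29 at 8 h (limma adjusted p = 0.0211). The LP-1 call held without any 1 of its 4 arrays (highest adjusted p = 0.00678), while both Raji calls were lost without any 1 of theirs (adjusted p up to 0.164).

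DTX3L is an E3 ubiquitin ligase that pairs with PARP9, an ADP-ribosyltransferase family member, and their genes lie head to head on chromosome 3. DTX3L read, in LP-1 at 8 h, 4.18 and 3.87 with the inhibitor, against 5.27 and 5.04 with the inactive enantiomer and 5.94 and 5.91 in untreated cells. The groups did not overlap, and the change was -1.13 ± 0.16 (limma adjusted p = 0.00198), or 2.19-fold lower. At 4 h in LP-1 the values were 4.63 and 4.996 with the inhibitor and 5.48 and 5.42 with the inactive enantiomer, a difference of -0.64 (95% interval -0.99 to -0.28) with an adjusted p of 0.0658 in limma's test. In Raji the gene read 4.65 and 4.98 with the inhibitor at 4 h, against 5.597 and 5.71 with the inactive enantiomer. At 8 h it read 5.48 and 5.43 with the inhibitor, against 6.30 and 6.04 with the inactive enantiomer, and untreated Raji gave 6.03 and 5.99. Here too the inhibitor arrays were below all others of their line and time, with changes of -0.84 ± 0.16 at 4 h (limma adjusted p = 0.0238) and -0.72 ± 0.16 at 8 h (limma adjusted p = 0.044). The LP-1 call held without any 1 of its 4 arrays, and both Raji calls were lost without any 1 of theirs (adjusted p up to 0.22).

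PARP9, the partner of DTX3L, was not called in any of the 4 comparisons, although each of its estimates was below 0. With the replicate number as a block in the fit, it was called lower in LP-1 at 8 h. In LP-1 at 8 h it read 5.17 and 5.41 with the inhibitor, against 5.80 and 6.71 with the inactive enantiomer. The arrays of the inactive enantiomer were far apart, and the difference of -0.96 had an interval of -1.71 to -0.22 and a limma adjusted p of 0.139. The differences were -0.37 in LP-1 at 4 h, -0.53 in Raji at 4 h and -0.62 in Raji at 8 h. PARP14, a mono-ADP-ribosyltransferase, had differences of -0.25 at 4 h and 0.37 at 8 h in LP-1, and of -0.19 at 4 h and -0.24 at 8 h in Raji, none of them called.

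**Figure D3:**
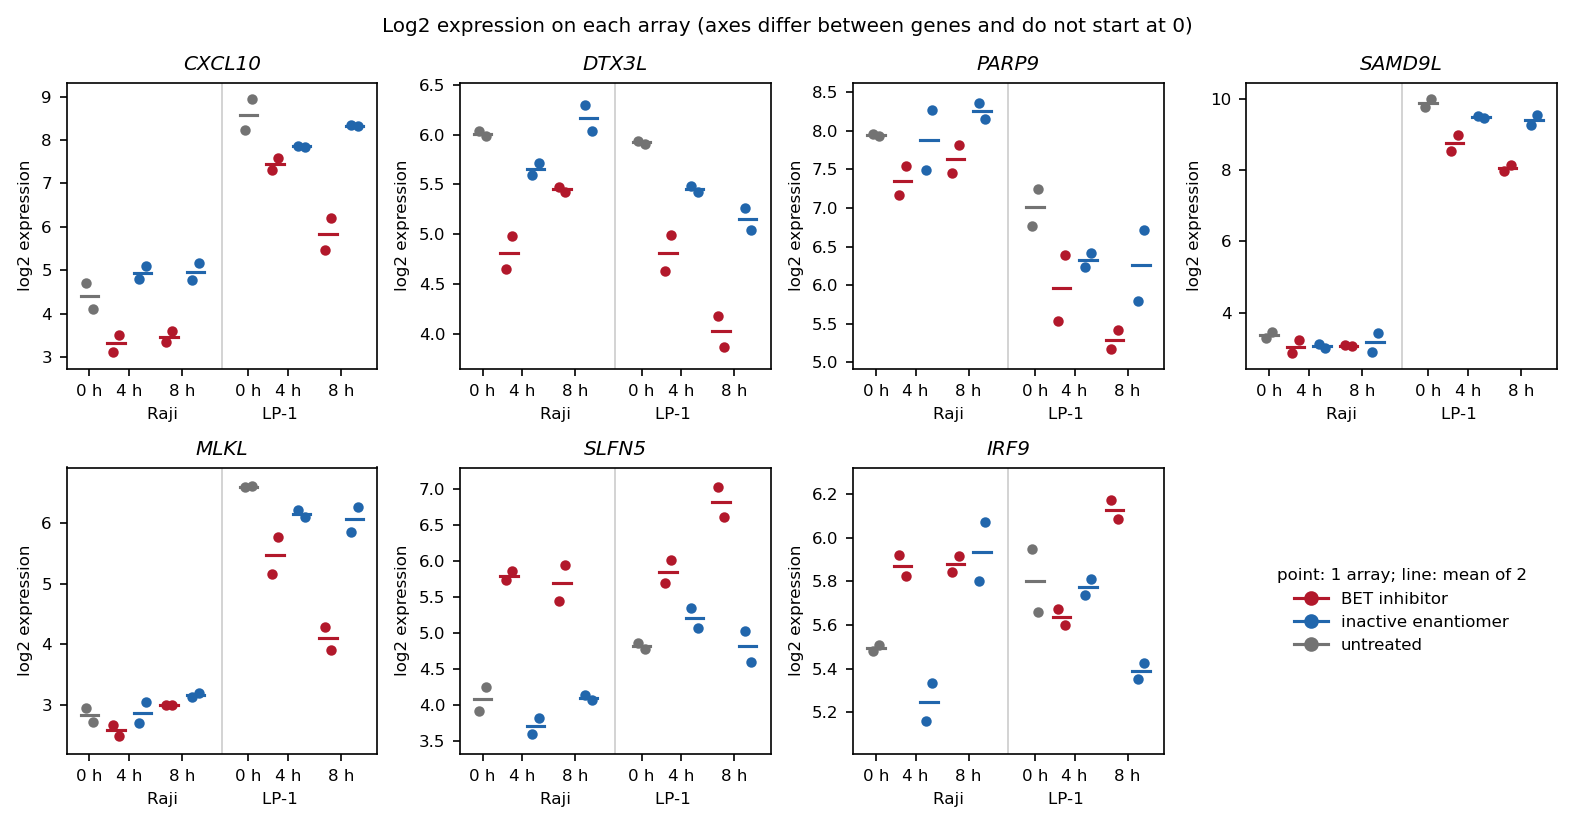
Log2 expression of CXCL10, DTX3L, PARP9, SAMD9L, MLKL, SLFN5 and IRF9 on each of the 20 arrays, Raji in the left and LP-1 in the right part of each panel, by time after compound. Red is the BET inhibitor, blue the inactive enantiomer and grey untreated cells; a point is 1 array and a line the mean of 2. CXCL10 and DTX3L are low under the inhibitor in both lines, SLFN5 is high in both, and MLKL and SAMD9L are near 3 in all Raji groups.

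SLFN5 belongs to the Schlafen family, whose members restrict viruses and cell growth and which interferon induces. In LP-1 at 8 h it read 7.02 and 6.61 with the inhibitor, against 5.03 and 4.60 with the inactive enantiomer and 4.86 and 4.78 in untreated cells. The inhibitor arrays were the highest of all LP-1 arrays, and the change was 1.998 ± 0.21 (limma adjusted p = 0.000248), or 3.99-fold higher. At 4 h in LP-1 the values were 5.69 and 6.01 with the inhibitor and 5.34 and 5.07 with the inactive enantiomer, which do not overlap, and the difference of 0.64 was not called (limma adjusted p = 0.165). In Raji SLFN5 read 5.73 and 5.85 with the inhibitor at 4 h, against 3.596 and 3.83 with the inactive enantiomer. At 8 h it read 5.45 and 5.94 with the inhibitor, against 4.14 and 4.07 with the inactive enantiomer, and untreated Raji gave 3.92 and 4.25. All 4 inhibitor arrays were above all 6 others in Raji, with changes of 2.08 ± 0.21 at 4 h (limma adjusted p = 0.000878) and 1.59 ± 0.21 at 8 h (limma adjusted p = 0.00389). These 3 calls held when any 1 array of the groups compared was left out, with adjusted p up to 0.0474.

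IRF9 is the DNA-binding subunit of ISGF3. In LP-1 at 8 h it read 6.17 and 6.08 with the inhibitor, against 5.35 and 5.42 with the inactive enantiomer and 5.95 and 5.66 in untreated cells. The arrays of the inactive enantiomer were the lowest of the 3 groups, and the change of the inhibitor over it was 0.74 ± 0.13 (limma adjusted p = 0.00586). In Raji at 4 h IRF9 read 5.92 and 5.82 with the inhibitor, against 5.16 and 5.33 with the inactive enantiomer and 5.48 and 5.51 in untreated cells, a change of 0.63 ± 0.13 (limma adjusted p = 0.0296). At 8 h in Raji it read 5.84 and 5.92 with the inhibitor, against 5.80 and 6.07 with the inactive enantiomer, and the groups overlapped. That difference was -0.06 (95% interval -0.33 to 0.22), and the one in LP-1 at 4 h was -0.14 (-0.41 to 0.14). The Raji call at 4 h was lost without any 1 of its 4 arrays (adjusted p up to 0.168), and the LP-1 call missed the threshold when the spread was taken from LP-1 arrays alone (adjusted p = 0.0522). IRF1 and IRF7, other transcription factors that interferon induces, were not called in any of the 4 comparisons. IRF1 lay between 4.65 and 5.64 in Raji and between 4.04 and 4.92 in LP-1, and IRF7 between 5.58 and 5.88 in Raji and between 5.69 and 6.35 in LP-1.

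MLKL, the pore-forming effector of necroptosis, and SAMD9L, an antiviral and growth-restraining protein, were called lower in LP-1 at 8 h. MLKL read 4.29 and 3.90 with the inhibitor at 8 h in LP-1, against 5.86 and 6.26 with the inactive enantiomer and 6.59 and 6.61 in untreated cells. SAMD9L read 7.98 and 8.13 with the inhibitor at 8 h in LP-1, against 9.27 and 9.53 with the inactive enantiomer and 9.78 and 9.99 in untreated cells. The groups did not overlap for either gene, with changes of -1.97 ± 0.21 for MLKL (limma adjusted p = 0.000248) and -1.35 ± 0.20 for SAMD9L (limma adjusted p = 0.00223). Both calls held without any 1 of the 4 arrays. At 4 h in LP-1 MLKL read 5.17 and 5.78 with the inhibitor, against 6.22 and 6.10 with the inactive enantiomer, a difference of -0.68 (95% interval -1.14 to -0.23). At that time SAMD9L read 8.54 and 8.99 with the inhibitor, against 9.52 and 9.47, a difference of -0.73 (-1.16 to -0.30). Neither was called at 4 h (limma adjusted p = 0.127 and 0.0833), and both were called when LP-1 inhibitor replicate 2 at 4 h was left out, as were DTX3L and IFIH1. In Raji all 10 arrays of MLKL lay between 2.49 and 3.18 and all 10 of SAMD9L between 2.88 and 3.47, and no difference between inhibitor and inactive enantiomer was called there. These values were below the 25th percentile of every Raji array (3.73 to 3.77), so a fall there could be missed.

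The RNA sensors of the list are RIGI, IFIH1 (MDA5), DHX58 (LGP2), DDX60 and the kinase EIF2AK2 (PKR), and 0 of the 5 were called in any of the 4 comparisons. IFIH1 had an estimate below 0 in all 4, with -0.76 at 4 h and -0.60 at 8 h in LP-1, and -0.25 at 4 h and -0.77 at 8 h in Raji. At 8 h in Raji it read 6.52 and 6.60 with the inhibitor, against 7.58 and 7.08 with the inactive enantiomer, without overlap, and limma gave an adjusted p of 0.174. EIF2AK2 had differences of -0.60 at 4 h and -0.40 at 8 h in LP-1, and of 0.10 at 4 h and -0.69 at 8 h in Raji. RIGI lay between 2.10 and 2.87 and DDX60 between 1.32 and 1.97 on all 20 arrays, the low end of the scale.

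The OAS enzymes make the 2′-5′ oligoadenylates that activate RNase L, and the IFIT proteins bind foreign RNA ends. None of the 4 OAS genes and none of the 4 IFIT genes were called in any of the 4 comparisons. The differences of the OAS genes lay between -0.60, for OAS2 in Raji at 8 h, and 0.33, for OASL in LP-1 at 4 h. IFIT3 in Raji at 4 h had the largest difference of the IFIT genes, with 3.21 and 2.32 with the inhibitor against 4.20 and 3.34 with the inactive enantiomer. The lower inactive-enantiomer array was close to the higher inhibitor array, and the difference of -1.002 had an interval of -1.98 to -0.03. IFIT2 had estimates above 0 in all 4 comparisons, from 0.22 to 0.73, none called.

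ISG15 is the ubiquitin-like modifier itself, UBE2L6 its conjugating enzyme and HERC5 its main human ligase. None of the 4 genes of the ISG15 system was called for the inhibitor over the inactive enantiomer, and their differences lay between -0.50, for UBE2L6 in Raji at 8 h, and 0.20, for HERC5 in LP-1 at 8 h. ISG15 itself lay between 5.06 and 5.91 on the Raji arrays and between 4.85 and 5.61 on the LP-1 arrays. The dynamin-like GTPases MX1 and MX2, the radical enzyme RSAD2 (viperin), its neighbour CMPK2, and IFI44 and IFI44L were not called either. MX1 lay between 3.16 and 3.78 in Raji and between 3.79 and 4.42 in LP-1, RSAD2 between 2.68 and 3.12 in Raji and between 2.54 and 3.49 in LP-1, and IFI44 between 1.51 and 1.92 in Raji and between 1.57 and 2.21 in LP-1. BST2 (tetherin) in Raji at 8 h read 5.08 and 4.89 with the inhibitor, against 5.80 and 5.86 with the inactive enantiomer, a difference of -0.85 (limma adjusted p = 0.12) that was not called. TRIM22, an antiviral ubiquitin ligase, had a difference of -0.71 in Raji at 8 h (limma adjusted p = 0.12).

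XAF1, a proapoptotic partner of XIAP, shows how far replicates could part. With the inhibitor it read 5.38 and 4.21 in LP-1 at 4 h, against 6.09 and 5.88 with the inactive enantiomer. In Raji at 8 h it read 5.63 and 5.55 with the inhibitor, against 4.93 and 3.71 with the inactive enantiomer. Replicates differed by over 1 in both of these comparisons, and the differences of -1.20 (95% interval -2.39 to -0.00077) and 1.27 (0.07 to 2.46) were not called.

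Cell type markers were also among the genes called for the inhibitor. Of 8 plasma cell markers, 1 was lower at 4 h and 2 at 8 h in LP-1, and 2 were lower at 4 h and 3 at 8 h in Raji. Of 6 B cell markers, 0 were lower in LP-1 at either time, and 1 was lower at 4 h and 2 at 8 h in Raji. Of 13 T and NK cell markers and of 8 myeloid markers, 1 each was lower in LP-1 at both times and 0 in Raji, and no epithelial, fibroblast or plasmacytoid dendritic cell marker was called. No marker of these lists was called higher. All probe sets were called lower or higher at 2.28%, 5.73%, 1.78% and 1.88% in LP-1 at 4 h, LP-1 at 8 h, Raji at 4 h and Raji at 8 h. Lower calls alone were 419 of 22011 probe sets in LP-1 at 4 h. They were 1.97% in LP-1 at 8 h, 0.341% in Raji at 4 h and 1.05% in Raji at 8 h. The part of the markers in the changes above was not tested.

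The inactive enantiomer over untreated cells joins the effects of compound, handling and culture time. For it, 0 of 42 genes were called in LP-1 at 4 h (0.0136% of all probe sets), LP-1 at 8 h (0.504%), Raji at 4 h (0%) and Raji at 8 h (0%). At an unadjusted p under 0.05 the same test gave 2, 12, 5 and 4 of the 42 genes, against 1089, 3330, 1741 and 994 of 22011 probe sets. The estimates in LP-1 at 8 h were mostly below 0, in 32 of 42 genes and in 61.3% of all probe sets. OAS1 read 6.11 and 6.23 with the inactive enantiomer at 8 h in LP-1, against 6.99 and 6.85 in untreated cells, a difference of -0.75 with a limma adjusted p of 0.058. DTX3L differed by -0.77 in the same comparison (limma adjusted p = 0.0622), with 5.27 and 5.04 against 5.94 and 5.91. IFIT3 read 3.45 and 3.58 with the inactive enantiomer, against 5.51 and 4.86 in untreated LP-1, a difference of -1.67 with a limma adjusted p of 0.115. These comparisons share the inactive-enantiomer arrays with those of the inhibitor.

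The response of Raji minus the response of LP-1 tested whether the lines differed. At 4 h, 0 of 42 genes were called (0.114% of all probe sets), and 9 had an unadjusted p under 0.05, beside 3353 of 22011 probe sets. At 8 h, 1 was called (0.245%), MLKL, whose change was -0.15 in Raji and -1.97 in LP-1. The difference between them was 1.81 ± 0.30 (95% interval 1.17 to 2.45, limma adjusted p = 0.0311). It fell short of the threshold when any 1 of 6 of the 8 arrays was left out (adjusted p up to 0.11). For SAMD9L, which was also called at 8 h in LP-1 and not in Raji, the difference of 1.25 ± 0.28 was not called (limma adjusted p = 0.108). Both MLKL and SAMD9L were at the low end of the scale in Raji, as given above. At 4 h SLFN5 differed by 1.44 ± 0.30 between the lines (limma adjusted p = 0.081) and CXCL10 by -1.23 ± 0.41 (limma adjusted p = 0.2). At 8 h both differences had the opposite sign and were not called. That of CXCL10 was 0.99, and SLFN5 changed by 1.59 in Raji and 1.998 in LP-1. The response at 8 h minus that at 4 h called 0 of 42 genes in LP-1 and 0 in Raji, against 0% of all probe sets in each. CXCL10 in LP-1 had a time difference of -2.09 (95% interval -2.98 to -1.20, limma adjusted p = 0.0992). An unadjusted p under 0.05 for this difference was found for 6 of the 42 genes in LP-1 and 4 in Raji, beside 2901 and 1257 of 22011 probe sets.

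Before any compound, the lines differed widely in these genes. Of the 42, 16 were called in untreated Raji over untreated LP-1 (4 higher, 12 lower), which is 38.1%, against 24.3% of all probe sets (6.79% higher, 17.5% lower). The split was 6 higher and 10 lower with quantile normalization and 6 higher and 9 lower with arrays centred on their medians. SAMD9L read 3.30 and 3.47 in untreated Raji, against 9.78 and 9.99 in untreated LP-1, a difference of -6.50 ± 0.20. SAMD9, its neighbour and relative on chromosome 7, read 3.81 and 3.36 in Raji, against 8.16 and 8.30 in LP-1. PARP14 read 2.89 and 3.38 in Raji, against 7.10 and 7.40 in LP-1. CXCL10 and MLKL were also lower in untreated Raji, by the values given above, with differences of -4.18 ± 0.29 and -3.78 ± 0.21. HERC5 read 3.42 and 3.41 in Raji and 5.96 and 6.37 in LP-1. These 6 genes did not overlap between the lines on any array, treated ones included. Neither did IFI35, EIF2AK2 and MX1, nor IFI6, which was not called. The share of all probe sets without overlap was not counted. IFI35, EIF2AK2, IFIT3, BST2, SLFN5 and MX1 were the other 6 that were called lower in Raji, with differences from -1.96 to -0.63.

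TRIM22, OAS2, IRF1 and UBE2L6 were higher in untreated Raji. TRIM22 read 5.86 and 5.22 in Raji, against 2.86 and 2.89 in LP-1, a difference of 2.67 ± 0.21 (limma adjusted p = 5.26e-07). OAS2 read 6.86 and 6.84 in Raji, against 4.88 and 4.81 in LP-1, a difference of 2.004 ± 0.18 (limma adjusted p = 2.79e-06). For both genes all 10 Raji arrays, treated ones included, were above all 10 LP-1 arrays. IRF1 differed by 1.04 and UBE2L6 by 0.48. DTX3L, in contrast, read 6.03 and 5.99 in untreated Raji and 5.94 and 5.91 in untreated LP-1, a difference of 0.09 (95% interval -0.26 to 0.44). The calls of MX1, BST2, SLFN5, IFIT3 and UBE2L6 were lost without at least 1 array, and those of MX1, BST2 and SLFN5 also when the arrays were centred on their medians (adjusted p from 0.0563 to 0.107). MX1 and BST2 were not called with quantile normalization either (adjusted p = 0.0694 and 0.152). Some calls were gained. PARP9, higher in untreated Raji by 0.94 and not called as deposited, was called with quantile normalization and with centring. It was also called with the lowest probe sets left out and with the replicate block. OAS1 was gained with quantile normalization and ISG15 with centring.

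**Figure D4:**
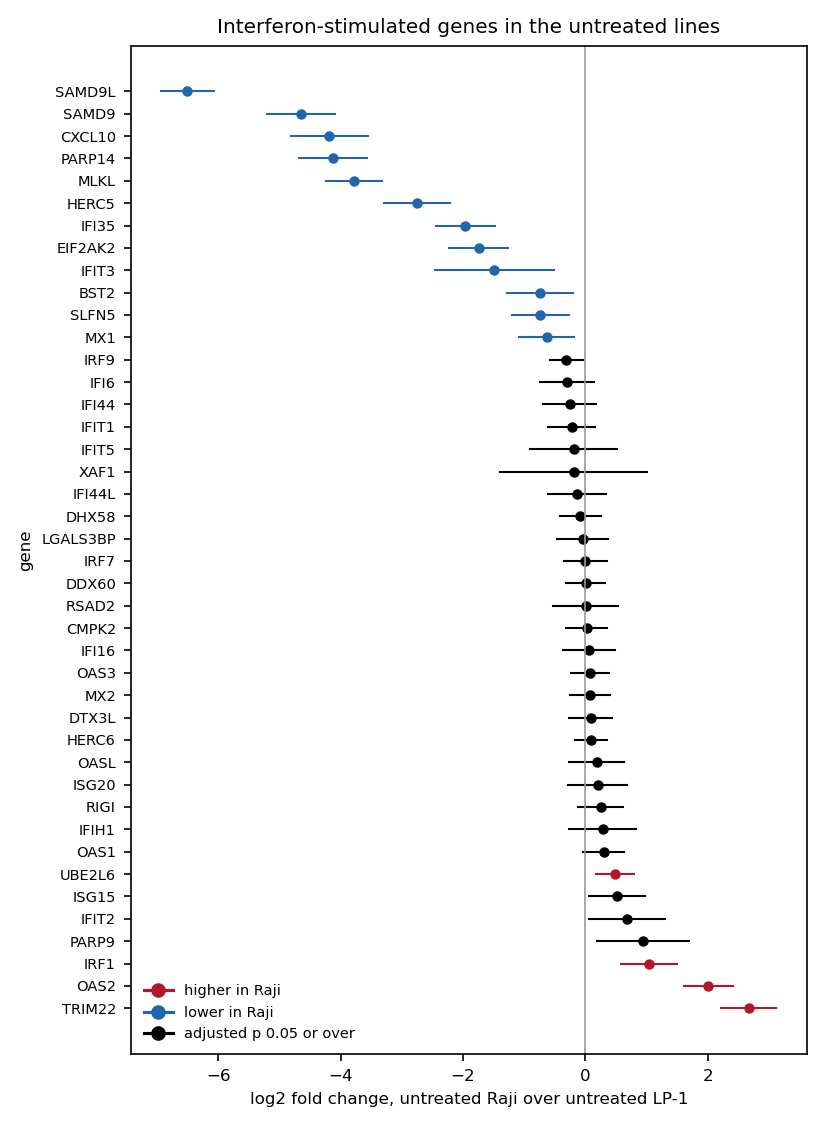
Log2 fold change of the 42 genes in untreated Raji over untreated LP-1, ordered by size, with 95% intervals from limma. Blue genes were lower and red genes higher in Raji at an adjusted p under 0.05, and black genes were not called. SAMD9L at -6.50 and TRIM22 at 2.67 are at the ends.

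Other genes of the pathway, 83 in 6 lists, were tested in the same fit. Whether their calls hold without 1 array or under other scalings was not tested. Of the 9 interferon genes measured, 0 were called in any of the 4 comparisons of the inhibitor, and IFNK in Raji at 4 h had the widest difference, 2.15 (limma adjusted p = 0.06). Of 8 receptors and kinases, JAK1 and JAK2, the kinases at the receptors, were higher in LP-1 at 8 h by 0.65 and 0.61, and 0 of the 8 were called in the other 3 comparisons. JAK2 averaged 5.29 with the inhibitor, 4.68 with the inactive enantiomer and 5.52 in untreated LP-1. The inhibitor group was thus not above untreated cells. JAK1 averaged 8.95, 8.29 and 8.59 in the same order. For the inactive enantiomer over untreated cells in LP-1 at 8 h, 1 of the 8 was called lower. JAK2 had the lowest difference of the 8 in that comparison (-0.84). Of 13 other transcription factors and brakes, IRF2, which competes with IRF1 for the same DNA element, was lower in LP-1 at 4 h (-1.09 ± 0.18, limma adjusted p = 0.00984) and at 8 h (-0.85 ± 0.18, limma adjusted p = 0.0188). PTPN1, a phosphatase that acts on JAK2 and TYK2, was higher in LP-1 at 8 h (0.45), Raji at 4 h (0.62) and Raji at 8 h (0.54). In Raji at 8 h STAT3 was higher (0.71) and PTPN6 (SHP-1), a phosphatase that restrains cytokine signalling, lower (-0.71).

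Of 13 genes of interferon induction, TBK1, the kinase that activates IRF3, was lower in LP-1 at 4 h (-0.80), and 3 were called in LP-1 at 8 h: TRAF6 (0.66) and TANK (0.94) higher and IKBKE, the kinase related to TBK1, lower (-0.77). None of the 13 was called in Raji. Of 12 antigen processing genes, HLA-E was higher in LP-1 at 8 h (0.67) and 0 were called elsewhere. Of 28 further interferon-stimulated genes, PARP12 was lower in LP-1 at 4 h (-0.73) and 8 h (-0.44). In LP-1 at 8 h SP110 was lower (-0.83) and NT5C3A (1.06), ZC3HAV1, the zinc-finger antiviral protein (0.66), and LAP3 (0.44) were higher. WARS1, a tryptophanyl-tRNA synthetase induced by interferon gamma, was lower in Raji at 8 h (-0.89 ± 0.13, limma adjusted p = 0.00554). Over the 83 genes, 3 (3.61%) were called in LP-1 at 4 h, 13 (15.7%) in LP-1 at 8 h, 1 (1.20%) in Raji at 4 h and 4 (4.82%) in Raji at 8 h, beside the shares of all probe sets given above.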

How the data were processed

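The deposited values are the authors' log2 expression per probe set (1 per transcript cluster), 1 column per array. The submitters' processing notes name RMA, Affymetrix Expression Console and the build hg19; versions are not given in the sources used here. RMA corrects background, quantile-normalizes and summarises probes. The deposited values were used without further scaling. The number of arrays limits the precision.

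The fit, by limma 3.58.1 under R 4.3.3, gave each group its own mean over the 20 arrays together (10 residual degrees of freedom, prior 2.59), so each probe set has 1 estimate of spread pooled over the 10 groups. The p-values measure the spread between the 2 replicates the labels call biological. The 13 comparisons were two-sided and adjusted by Benjamini-Hochberg across 22011 probe sets. The fit was tested on simulated data. Of the probe sets, 14432 carry 1 symbol, 2408 several and 5171 none, and 14404 of the first matched RefSeq. None of the 42 measured genes of the list had more than 1 single-symbol probe set. Values of every array are given for genes called in a comparison of the inhibitor with the inactive enantiomer and for up to 8 of those that differ most between the untreated lines; other genes are given by range and count, or, where singled out, were chosen after their values were seen. The genes and lists were chosen with earlier results of these data known. The alternatives tried were 2 scalings, a filter on low probe sets, an intensity trend with a robust prior, a replicate block, a fit per line and leaving out each array.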

Additional observations from a re-analysis of the deposited data

Results flagged for a closer look

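MLKL is listed for a closer look because its response to the BET inhibitor at 8 h differed between the lines by a test of the difference itself. The response of Raji minus that of LP-1 was 1.81 (95% interval 1.17 to 2.45, limma adjusted p = 0.0311). MLKL was at 3.00001 and 2.997 with the inhibitor and 3.12 and 3.18 with the inactive enantiomer in Raji, and at 4.29 and 3.90 with the inhibitor and 5.86 and 6.26 with the inactive enantiomer in LP-1. Untreated Raji was already at 2.94 and 2.71, against 6.59 and 6.61 in untreated LP-1. All Raji values of MLKL were below the 25th percentile of every Raji array (3.73 to 3.77), so a fall in Raji could be missed.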

How the results depend on the processing

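The 6 calls in LP-1 at 8 h were kept under every alternative that tested them, with 1 exception: IRF9 missed the threshold when LP-1 arrays were fitted alone. MLKL was left out by the filter on low values. In Raji, SLFN5 alone kept its calls when any 1 array was left out and when Raji arrays were fitted alone, which left 1 call at 4 h and 1 at 8 h. Without 1 array, the counts of called genes were 0 to 4 in LP-1 at 4 h (4 without inhibitor replicate 2), 6 to 6 in LP-1 at 8 h, 1 to 1 in Raji at 4 h and at 8 h, 11 to 13 for the untreated lines, 0 to 1 for the line difference at 4 h and at 8 h and for the time difference in LP-1, and 0 elsewhere. Leaving out the 7337 lowest probe sets gave 1 call in LP-1 at 4 h (DTX3L), 2 for the inactive enantiomer in LP-1 at 8 h (DTX3L and OAS1), 1 for the line difference at 4 h (SLFN5) and 0 at 8 h, where MLKL was not tested. The trend with a robust prior gave 1 call for the inactive enantiomer in LP-1 at 8 h (OAS1). Quantile normalization gave 2 calls for the line difference at 8 h (MLKL and SAMD9L). XAF1 in Raji at 4 h was 0.53 in all arrays and -0.054 to 1.12 when 1 array was left out, below 0 without inactive-enantiomer replicate 2.

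Replicate numbers showed little pairing over all probe sets: 1 of 10 correlations between the deviations of same-numbered LP-1 arrays exceeded 0.1 and 0 of 10 did in Raji. A replicate effect in single genes is not excluded by this. In every LP-1 group PARP9, HERC5 and IFI16 were higher in replicate 2 and XAF1 in replicate 1. The share of all probe sets with such a fixed order was not counted, so these genes do not show a replicate effect. With the replicate number as a block, the line difference at 8 h had 0 calls (MLKL adjusted p = 0.0617), and DTX3L in Raji at 8 h had an adjusted p of 0.0729. PARP9 in LP-1 at 8 h was called lower with this block. Between the untreated lines the block left IFIT3 (0.0781), UBE2L6 (0.0928) and MX1 (0.101) above the threshold. Fits per line gave fewer calls over all probe sets, with 76 against 502 in LP-1 at 4 h, 347 against 1262 in LP-1 at 8 h, 49 against 391 in Raji at 4 h and 90 against 414 in Raji at 8 h; without 1 array the counts were 64 to 971, 485 to 985, 27 to 154 and 100 to 145. For the inactive enantiomer in LP-1 at 8 h, 111 calls became 19 with quantile normalization, 34 with centring, 51 with the block, 1 with LP-1 alone and 9 to 24 without 1 array; at 4 h, 3 became 0 or 1 under all of these but centring, and 1 with the filter. The 25 calls of the line difference at 4 h became 16, 4 and 7 with quantile normalization, centring and the block, 104 with the filter and 0 to 484 without 1 array; the 54 at 8 h became 34 with the block and 17 to 131 without 1 array. The time difference had 0 calls in each line, against 5 in Raji with quantile normalization and up to 560 in LP-1 when an array was left out. Scaling moved the share of higher calls among all probe sets called, to 33% with quantile normalization from 16.5% as deposited in LP-1 at 4 h, 53.9% from 65.6% in LP-1 at 8 h, 61.2% from 80.8% in Raji at 4 h and 45.8% from 28% between the untreated lines. Centring moved the median of all probe sets between the untreated lines to 0.108 from -0.03. The causes were not tested.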
